A study of Mus musculus with 4 samples.

Results

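*Hba-x*, *Hbb-y* and *Hbb-bh1* encode embryonic globins, *Hba-a1*, *Hba-a2*, *Hbb-b1* and *Hbb-b2* encode globins of the adult type, *Hbq1b* encodes a theta globin and *Ahsp* encodes a chaperone of free alpha-globin. These 9 genes were selected by gene name, out of 37074 gene names on the arrays, at a time when earlier results of the same arrays were known. Their measured values in the mutant and WT arrays were among what they were chosen by, so those values are given as a description. They are read by 11 of 56605 probes, each a 60-base DNA sequence.

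Whole embryos of strain C57BL/6 were collected at the stages E8.5 and E10.5 (E for embryonic day), and their RNA was labelled with Cy3 and hybridized to 4 one-colour Agilent arrays. The groups were WT and *Dyrk2*-/- at each stage, with 1 array per group, so the arrays give no replicate check, no test was made, and the precision is limited by the number of arrays. The *Dyrk2*-/- mice carried small deletions in *Dyrk2*, made in fertilized eggs with a CRISPR/Cas9 nickase, and several deletion patterns were obtained and intercrossed. Which deletion the arrayed embryos carried, and how many embryos went into each RNA, is not given in the sources used here.

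Hemoglobin is built from alpha-like chains, encoded in a cluster on chromosome 11 of the mouse, and beta-like chains, encoded in a cluster on chromosome 7. The first red cells of the embryo form in the yolk sac and carry embryonic globins beside alpha-globin, and red cells that form later in the fetal liver carry alpha-globin with adult beta-globin. C57BL/6 mice carry the adult beta-globin genes *Hbb-bs* and *Hbb-bt*, whereas *Hbb-b1* and *Hbb-b2* belong to another haplotype of the same locus, which the reference annotation places on an alternate scaffold.

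The intensity of each probe is given as log2 relative to the 75th percentile of its array, and values are compared between arrays and not between probes, apart from naming the brightest marker of a list. Where 4 values follow each other, they are in the order WT E8.5, labelled *Dyrk2*-/- E8.5, WT E10.5 and labelled *Dyrk2*-/- E10.5. A probe counted as well above background where the scanner software so marked no fewer of its spots than it left unmarked. This held for 55.4%, 53.4%, 56.2% and 56.4% of probes. Of the 9 genes, 6 were well above background on all 4 arrays.

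The labels were first set against the genes that bear on them. The brightest *Dyrk2* probe read 0.06, 0.76, −0.31 and 0.34, so the array labelled *Dyrk2*-/- was 1.62-fold above WT at E8.5 and 1.57-fold above it at E10.5. Its E8.5 difference was 0.16 in log2 with spike-in scaling and 0.44 without scaling. Its E10.5 difference was 0.81 and 0.52 in log2 under the same scalings. The other *Dyrk2* probe read −0.23, −0.20, −0.28 and −0.00, and its E8.5 difference was negative under spike-in scaling (−0.50) and without scaling (−0.23). Where the deletions lie relative to the probes was not analysed, so the probes do not check the labels, and the arrays are called by their labels.

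*Xist*, expressed from the inactive X chromosome, was well above background on 1 array, that of E10.5 labelled *Dyrk2*-/-, where it read −0.37. The Y-linked gene *Ddx3y* read −1.56 on both E8.5 arrays and −2.02 on the WT E10.5 array, and was not well above background on the remaining array. The E10.5 arrays therefore differed in sex-linked transcripts as well as in their label, and the part of this in the values below cannot be told apart from the genotype. Markers of heart (6 of 6), neural tube (5 of 5) and paraxial mesoderm (5 of 5) passed this level on all 4 arrays, which bears on the label of whole embryo.

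**Figure D1:**
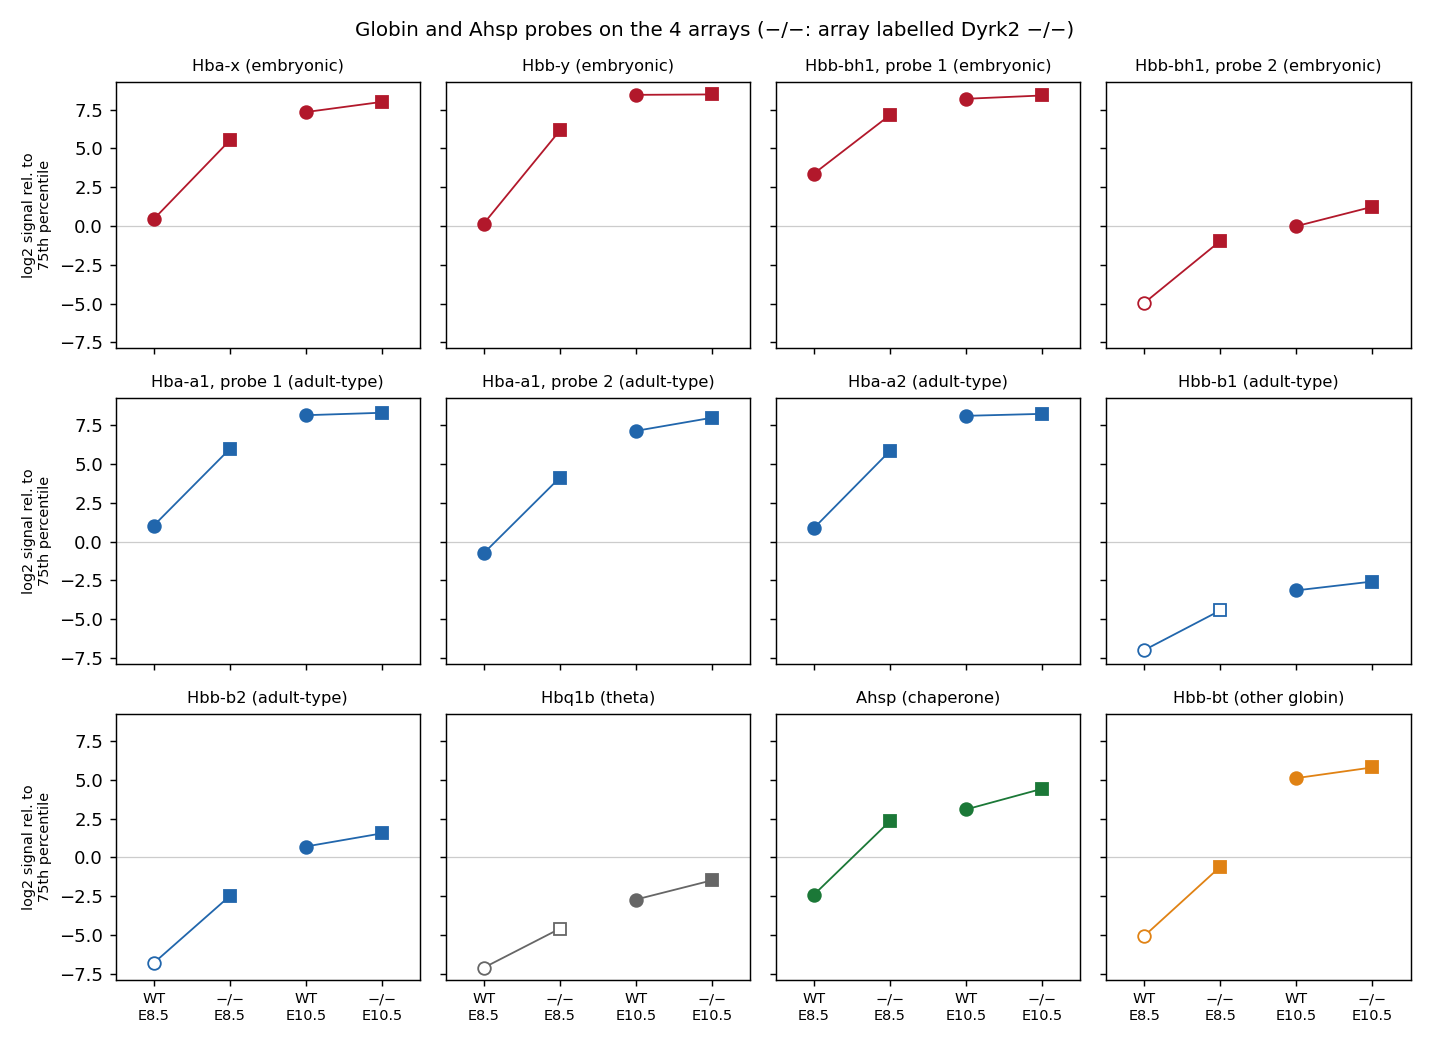
Log2 signal of the 11 globin and *Ahsp* probes and of *Hbb-bt* on the 4 arrays, relative to each array's 75th percentile, with open symbols where a probe was not well above background. Lines join the WT array to the array labelled *Dyrk2*-/- of the same stage, and the E10.5 difference of *Hbb-y* (0.03) turns negative under quantile normalization, without scaling and in the deposited table, and that of *Hba-a2* (0.13) without scaling.

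Among the embryonic globins, *Hba-x*, the zeta-globin gene of the alpha cluster, read 0.43, 5.50, 7.33 and 7.99. *Hbb-y*, which encodes the epsilon-type chain, read 0.15, 6.15, 8.44 and 8.47. *Hbb-bh1*, the other embryonic beta-like gene, read 3.37, 7.15, 8.19 and 8.40. In each of these genes the WT E8.5 array stood apart below the others.

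The array labelled *Dyrk2*-/- at E8.5 was 33.7-fold above WT for *Hba-x*, 63.8-fold for *Hbb-y* and 13.7-fold for *Hbb-bh1*. In RNA of whole embryos, fewer cells of a type and less RNA per cell cannot be told apart. At E10.5 the same comparison gave 1.58-fold for *Hba-x* and 1.16-fold for *Hbb-bh1*. *Hbb-y* at E10.5 was 1.02-fold higher in this scaling and lower under quantile normalization (−0.12), without scaling (−0.10) and in the deposited table (−0.12), all in log2. The direction of *Hbb-y* at E10.5 was thus set by the scaling.

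*Hbb-bh1* had another, dimmer probe, which was not well above background on the WT E8.5 array and read −0.97, −0.01 and 1.23 on the others. Where a probe was well above background on just 1 of the arrays compared, its fold was taken against its own value on the dimmer array or, if higher, the lowest value that any probe well above background had there, and is written as at least that fold. Such a bound holds for the main background treatment alone, and dim probes often fell below it under normexp background correction. By this bound the dimmer probe was at least 14.4-fold higher on the array labelled *Dyrk2*-/- at E8.5, but by 1.93 in log2 under normexp. At E10.5 it was 2.38-fold higher, a larger difference than that of the brighter probe of the same gene.

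For the adult-type alpha-globin genes, the brighter *Hba-a1* probe read 1.02, 5.96, 8.14 and 8.30. *Hba-a2* read 0.88, 5.85, 8.10 and 8.23. The array labelled *Dyrk2*-/- was 30.7-fold and 31.4-fold above WT for these genes at E8.5. At E10.5 it was 1.12-fold higher for *Hba-a1*, and 1.09-fold higher for *Hba-a2*, whose direction turned without scaling (−0.0043 in log2).

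The dimmer *Hba-a1* probe read −0.74, 4.13, 7.14 and 7.98, which is 29.2-fold higher on the array labelled *Dyrk2*-/- at E8.5 and 1.80-fold higher at E10.5. Each alpha-globin probe was printed in 10 spots per array, whose range shows the spread within an array and not between embryos. At E10.5 the spots of the brighter *Hba-a1* probe ran from 7.999 to 8.28 on the WT array and from 8.13 to 8.505 on the other, and those of *Hba-a2* from 7.92 to 8.26 and from 8.01 to 8.39. These ranges overlapped. The spots of the dimmer *Hba-a1* probe ran from 7.05 to 7.30 and from 7.89 to 8.20, without overlap. At E8.5 the spots of all 3 alpha-globin probes stood apart between the arrays, for *Hba-a2* from 0.66 to 1.04 on the WT array and from 5.69 to 6.02 on the array labelled *Dyrk2*-/-.

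Without scaling, the probes with small E10.5 differences had high and nearly equal intensities on the WT array and the array labelled *Dyrk2*-/-. *Hbb-y* had a processed intensity of 154275 and 143504 on these arrays, *Hba-a2* 121894 and 121531, and the brighter *Hba-a1* probe 125315 and 127568. No spot was marked as saturated on any array. Whether the response of these probes was still linear at such intensities was not tested.

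Both adult-type beta-globin probes missed the background mark on some array. *Hbb-b1* was not well above background at E8.5 on either array, and read −3.14 and −2.57 at E10.5, a 1.49-fold difference just under the 1.5-fold threshold used for counts. *Hbb-b2* was not well above background on the WT E8.5 array and read −2.50, 0.70 and 1.54 on the others. Its difference was at least 5.0-fold at E8.5, but 1.11 in log2 under normexp, and 1.80-fold at E10.5. By gene name, neither is an annotated adult beta-globin gene of the strain. The *Hbb-b1* probe nevertheless shares a run of 46 of its 60 bases with the start of the transcript of *Hbb-bs*, which is such a gene. Its values are therefore not assigned to a gene of another haplotype, and how far they read *Hbb-bs* was not tested.

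Among the remaining members, the theta globin gene *Hbq1b* was not well above background at E8.5 and read −2.72 and −1.48 at E10.5, 2.36-fold higher on the array labelled *Dyrk2*-/- (0.79 in log2 under normexp). *Ahsp*, whose product holds free alpha-globin soluble, read −2.40, 2.34, 3.09 and 4.42. It was 26.8-fold higher on the array labelled *Dyrk2*-/- at E8.5 (3.75 in log2 under normexp) and 2.52-fold higher at E10.5, and was well above background on every array.

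**Figure D2:**
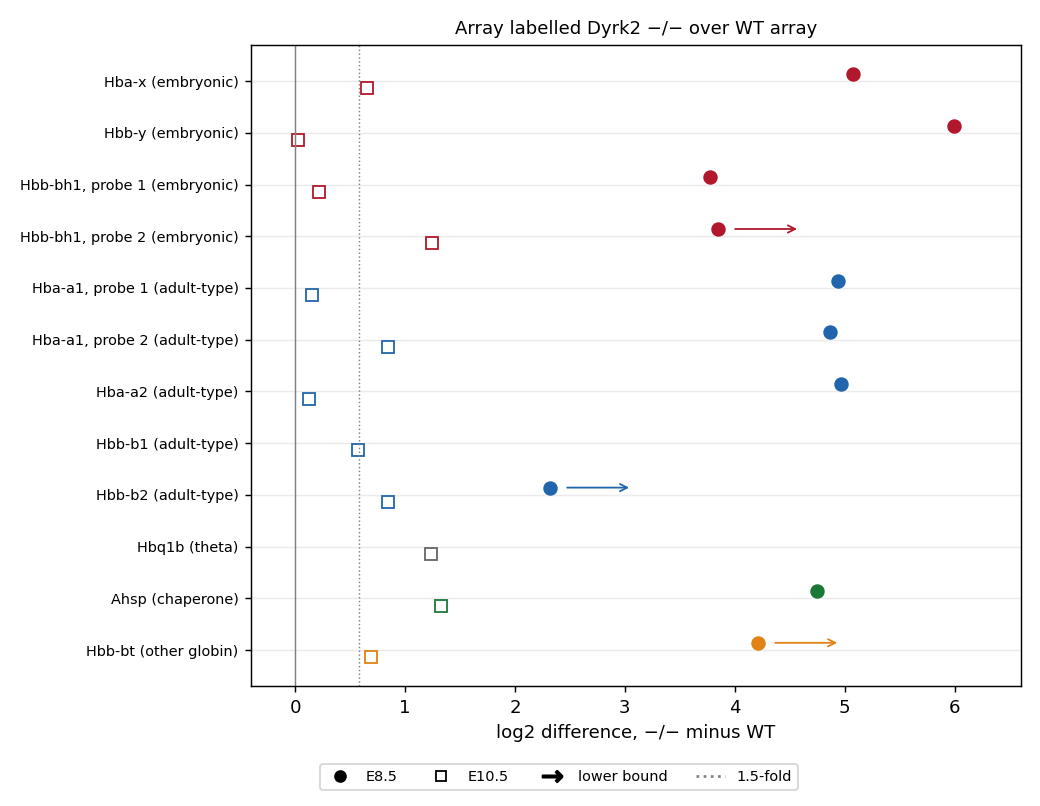
Log2 difference between the array labelled *Dyrk2*-/- and the WT array at E8.5 (filled) and at E10.5 (open), with arrows where a value is a lower bound and no symbol where neither array was well above background. At E10.5 *Hbb-y* (0.03) falls below 0 under quantile normalization, without scaling and in the deposited table, and *Hba-a2* (0.13) without scaling.

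Taken as counts, 7 of the 9 genes could be compared at E8.5, 6 of them well above background on both arrays and *Hbb-b2* on the brighter array alone, and these 7 were at least 1.5-fold higher on the array labelled *Dyrk2*-/-, beside 5.14% of all genes tested. The median log2 difference was 4.94 over the 7 genes and −0.02 over all 20709 genes tested. At E10.5 all 9 were compared and 4 (*Hba-x*, *Hbb-b2*, *Hbq1b* and *Ahsp*) were at least 1.5-fold higher, beside 3.5% of all genes. The median difference was 0.57 there, against −0.00 over 21209 genes, and all 9 were higher except under the scalings named above for *Hbb-y* and *Hba-a2*. As the genotype differences were among what chose the genes, nothing is read from these counts.

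Embryonic and adult-type globins were also compared by the size of the genotype difference. At E8.5 the median log2 difference was 5.08 over the 3 embryonic genes and 4.94 over the 3 adult-type genes that could be compared, a gap of −0.14 (adult-type minus embryonic). Of these adult-type genes, *Hba-a1* and *Hba-a2* were read by probes that share 59 of 60 bases. The remaining one, *Hbb-b2*, was not well above background on the WT E8.5 array. At E10.5 the medians were 0.21 over 3 and 0.36 over 4 genes, a gap of 0.15. Under normexp background correction and with all probes of a gene averaged, the E10.5 gap turned negative (−0.00082 and −0.12). By alternatives chosen after the data were seen, it was 0.50 with the dimmer *Hba-a1* probe and 0.36 with *Hbb-bt* counted as adult-type, which made the E8.5 gap −0.37. At E8.5, 3 of 3 embryonic and 3 of 3 adult-type genes compared reached 1.5-fold, and at E10.5 1 of 3 and 1 of 4 did. These E10.5 counts were 0 of 3 and 2 of 4 with quantile normalization and in the deposited table, 0 of 3 and 1 of 4 without scaling, 1 of 3 and 2 of 4 with spike-in scaling, and 2 of 3 and 1 of 4 with all probes of a gene averaged.

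The scaling matters for such small differences, because it moved the median of all genes. The E8.5 median over all genes went from −0.02 to −0.56 with spike-in scaling and to −0.28 without scaling, and the E10.5 median went from −0.00 to 0.16 and to −0.13. For E10.5 over E8.5 it went from −0.08 to −0.15 and 0.10 on the WT arrays, and from −0.05 to 0.57 and 0.25 on the arrays labelled *Dyrk2*-/-. The difference between genes within a comparison is not touched by a constant shift of an array.

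The stage comparison asks how the globins differed between E8.5 and E10.5 within a label. On the WT arrays E10.5 was 120-fold above E8.5 for *Hba-x*, 313-fold for *Hbb-y* and 28.3-fold for *Hbb-bh1*. For the adult-type genes it was 139-fold for the brighter *Hba-a1* probe, 235-fold for the dimmer one and 150-fold for *Hba-a2*. All of these rose by far more than the genotype difference at E10.5.

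The adult-type beta-globin genes rose at least 3.20-fold (*Hbb-b1*) and at least 45.7-fold (*Hbb-b2*) between the WT arrays, *Hbq1b* at least 4.29-fold and *Ahsp* 45.0-fold. Under normexp these rises were 0.71, 3.47, 0.94 and 4.60 in log2, so the bounds were not kept. On the arrays labelled *Dyrk2*-/- the same rise was 5.61-fold for *Hba-x*, 5.0-fold for *Hbb-y*, 2.39-fold for *Hbb-bh1*, 5.06-fold for the brighter *Hba-a1* probe, 14.5-fold for the dimmer one and 5.22-fold for *Hba-a2*. It was at least 3.64-fold for *Hbb-b1*, 16.5-fold for *Hbb-b2*, at least 8.27-fold for *Hbq1b* and 4.22-fold for *Ahsp*, or 0.46, 3.14, 1.24 and 2.16 in log2 under normexp. Every gene that could be compared as a value on both sides rose less between the arrays labelled *Dyrk2*-/- than between the WT arrays. This restates that the genotype difference of these genes was larger at E8.5 than at E10.5. As the genotype differences were among what chose the genes, it is no separate result. The arrays labelled *Dyrk2*-/- also differed between the stages in *Xist* (at least 17.9-fold higher at E10.5) and *Ddx3y* (at least 9.24-fold lower). Between the WT arrays *Ddx3y* was 1.37-fold lower and *Xist* was not well above background. The part of sex in these rises cannot be told apart from the label.

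**Figure D3:**
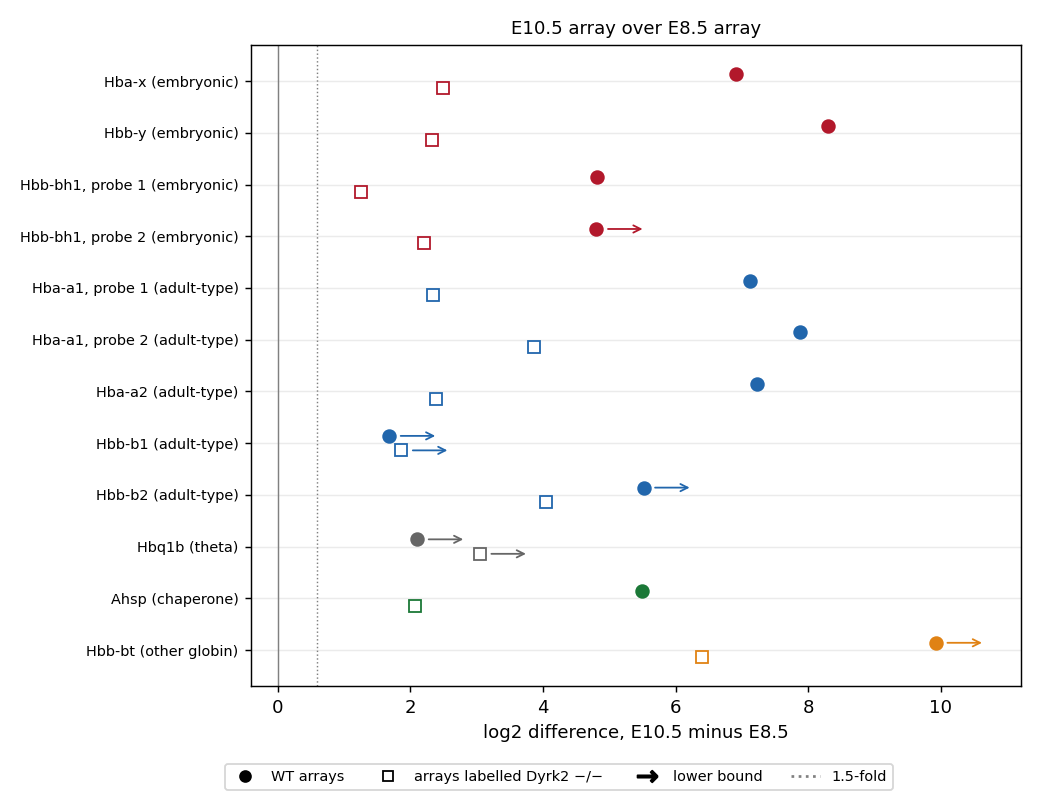
Log2 difference between the E10.5 and the E8.5 array for the WT arrays (filled) and the arrays labelled *Dyrk2*-/- (open), with arrows where a value is a lower bound. All points lie above 0, and *Hbb-bt*, at 6.40 on the arrays labelled *Dyrk2*-/-, lies beyond the embryonic globins.

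All 9 genes were at least 1.5-fold higher at E10.5 on the WT arrays, with 6 of them well above background on both, beside 18.8% of all genes tested. The same held on the arrays labelled *Dyrk2*-/-, with 7 well above background on both, beside 17.6%, although under normexp 8 reached it and *Hbb-b1* did not (0.46 in log2). The median log2 difference was 6.91 on the WT arrays, or 5.52 with bounds in place of values, against −0.08 over all genes. It was 2.34 on the arrays labelled *Dyrk2*-/- against −0.05.

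Split by type, the median rise between the WT arrays was 6.91 in log2 for embryonic and 7.17 for adult-type globins, a gap of 0.27 that turned to −0.59 with bounds in place of values and to −1.51 under normexp background correction. Between the arrays labelled *Dyrk2*-/- the medians were 2.32 and 2.36, a gap of 0.04 that was −0.0086 under normexp. With only these genes, the arrays thus gave no stable order of embryonic and adult-type globins by stage. The spread within each type was wider than the gap, as the rise of *Hbb-bh1* between the WT arrays (4.82) lay far below that of *Hbb-y* (8.29).

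The genotype difference at E10.5 minus that at E8.5 was −4.42 in log2 for *Hba-x*, −5.97 for *Hbb-y*, −3.56 for the brighter *Hbb-bh1* probe, −4.78 and −4.02 for the *Hba-a1* probes, −4.84 for *Hba-a2* and −3.41 for *Ahsp*. These values equal the rise between the arrays labelled *Dyrk2*-/- minus the rise between the WT arrays. This difference of differences was not tested. The values rose from each array to the next in the order given above in 11 of 11 probes of these genes (7 of 7 well above background throughout), in 10 of 11 with quantile normalization and in the deposited table, and in 9 of 11 without scaling. Of 18686 genes well above background on all 4 arrays, 999 (5.35%) had this order, or 6.06% with quantile normalization, 1.97% with spike-in scaling and 2.29% without scaling. The steps from WT to the other label at each stage were among what chose the genes, so nothing is read from these counts. Among the 11 probes, the brighter *Hba-a1* probe and the *Hba-a2* probe share 59 of 60 bases and are not independent. Which steps of the order exceed the spread between embryos cannot be given with 1 array per group.

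The array labelled *Dyrk2*-/- at E8.5 did not reach the WT E10.5 array for these genes. The WT E10.5 array was higher by 1.83 in log2 for *Hba-x*, 2.30 for *Hbb-y*, 1.04 for *Hbb-bh1*, 2.18 for *Hba-a1* and 2.26 for *Hba-a2*. It was higher by 3.19 for *Hbb-b2* and by 0.75 for *Ahsp*, and at least 2.45-fold higher for *Hbb-b1* and 3.504-fold for *Hbq1b* (0.14 and 0.45 in log2 under normexp).

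Other globin genes were read from a list of 10 names, of which 6 were among the array's gene names and *Hbb-bs*, *Hbb-bh0*, *Hbb-bh3* and *Hbb-ar* were not. *Hbb-bt*, an adult beta-globin gene of C57BL/6, was not well above background on the WT E8.5 array and read −0.60, 5.10 and 5.79 on the others. It was at least 18.6-fold higher on the array labelled *Dyrk2*-/- at E8.5 (2.20 in log2 under normexp) and 1.61-fold higher at E10.5, where it fell under 1.5-fold without scaling (0.56 in log2). Its rise from E8.5 to E10.5 was at least 971-fold on the WT arrays and 84.3-fold on the arrays labelled *Dyrk2*-/-, above every fold among the 9 genes that was a value and not a bound. Under normexp its rise was 7.53 and 6.04 in log2, and on the WT arrays that of *Hbb-y* (8.08) was larger.

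*Hbb-bh2*, a beta-like gene next to *Hbb-bh1*, was well above background on the array labelled *Dyrk2*-/- at E8.5 alone, where it read −2.58, at least 4.73-fold above WT (1.01 in log2 under normexp). On the arrays labelled *Dyrk2*-/- it was at least 4.57-fold lower at E10.5 than at E8.5, the opposite direction to the 9 genes (−0.86 in log2 under normexp). *Hbq1a*, the other theta globin gene, was well above background at E10.5 alone, at −4.48 and −3.10, and was 2.59-fold higher on the array labelled *Dyrk2*-/-, but under normexp less than 1.5-fold higher (0.52 in log2).

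Globin genes outside the alpha and beta clusters were also read. *Cygb* (cytoglobin) read −2.47, −2.09, 0.15 and 0.36, and was 1.30-fold higher on the array labelled *Dyrk2*-/- at E8.5, but lower with spike-in scaling (−0.15 in log2). The myoglobin gene *Mb* was well above background at E10.5 alone, at −3.33 and −4.11, and so stood 1.72-fold below WT on the array labelled *Dyrk2*-/-, a difference of −0.22 in log2 under normexp. *Ngb* (neuroglobin) did not rise well above background anywhere.

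A list of 26 genes whose products regulate globin genes was well above background for all 26 on some array. At E8.5, 25 were compared, and 6 were at least 1.5-fold higher on the array labelled *Dyrk2*-/- (*Klf1*, *Gata1*, *Nfe2*, *Lyl1*, *Gfi1b* and *Ikzf1*) and 0 lower. The median of the list was 0.07 in log2, and the counts became 5 higher and 8 lower with spike-in scaling, 5 and 1 without scaling, and 5 and 0 under normexp. Of all 20709 genes tested at E8.5, 1064 were higher and 1346 lower, against 293 and 9529 with spike-in scaling and 508 and 3177 without scaling. Under normexp 271 of them were higher and 342 lower. At E10.5, 8 of 26 were higher, these 6 with *Tal1* and *Zfpm1*, and 1, *Bcl11a*, was lower, with a list median of 0.00. Those E10.5 counts became 8 and 0 with spike-in scaling, 6 and 2 without scaling, and 7 and 1 under normexp. Of all 21209 genes tested at E10.5, 743 were higher and 895 lower, against 1238 and 550 with spike-in scaling and 563 and 1388 without scaling. Under normexp 184 of them were higher and 145 lower.

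*Gata1*, a zinc finger activator of red cell genes, read −4.01, 0.26, 0.98 and 2.21, 19.3-fold higher on the array labelled *Dyrk2*-/- at E8.5 and 2.35-fold at E10.5. *Nfe2*, the tissue-specific subunit of a factor that binds globin enhancers, read −4.12, −0.54, 0.16 and 1.25, 11.98-fold and 2.14-fold higher. *Klf1*, an activator of adult beta-globin that binds CACCC boxes, was not well above background on the WT E8.5 array and read −2.82, −1.32 and −0.00 on the others, at least 3.99-fold and 2.50-fold higher. In these genes, as in the globins, the WT E8.5 array was the lowest. Under normexp the E8.5 differences were 2.57 for *Gata1*, 1.83 for *Nfe2* and 0.77 for *Klf1* in log2, below the values given.

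*Gfi1b*, a repressor in red cell precursors, was at least 5.96-fold higher on the array labelled *Dyrk2*-/- at E8.5 (1.09 in log2 under normexp) and 2.09-fold higher at E10.5, and *Tal1*, a partner of *Gata1*, was 1.39-fold higher at E8.5, but lower with spike-in scaling (−0.06 in log2), and 1.79-fold higher at E10.5. *Lyl1* was 1.72-fold and 1.52-fold higher, but under 1.5-fold at E8.5 with spike-in scaling (0.24 in log2) and without scaling (0.52), and at E10.5 without scaling (0.47) and under normexp. *Bcl11a*, which represses embryonic beta-like globins, was 1.64-fold below WT at E10.5 by its brightest probe. That probe was not well above background at E8.5 and rose at least 144-fold between the WT arrays and at least 71.6-fold between the others, or by 4.82 and 3.85 in log2 under normexp. Another *Bcl11a* probe was well above background on the WT E8.5 array (−3.54) and at least 1.98-fold below it on the array labelled *Dyrk2*-/- at E8.5. It rose 10.6-fold between the WT arrays and at least 16.7-fold between the others. Under normexp these values were −0.39, 2.13 and 2.24 in log2. *Gata2* was 1.09-fold lower at E8.5 and 1.44-fold lower at E10.5, so the direction was not shared by all blood factors of the list.

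By stage, 13 of the regulators were at least 1.5-fold higher at E10.5 for WT and 0 lower, with a median of 0.46 in log2, beside 18.8% of all genes higher and 17.5% lower. On the arrays labelled *Dyrk2*-/-, 12 were higher and 1, *Lmo2*, was 1.66-fold lower, with a median of 0.44. The latter counts became 19 and 0 with spike-in scaling, with a median of 1.07, and 14 and 0 without scaling, where *Lmo2* stood at −0.11 and −0.43 in log2. The share of all genes higher in that comparison went from 17.6% to 49.1% with spike-in scaling and to 28.3% without scaling. *Gata1* rose 31.8-fold between the WT arrays and 3.87-fold between the others, and *Nfe2* 19.4-fold and 3.46-fold. The rises between the WT arrays were 3.24 and 2.50 in log2 under normexp.

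The genes whose profile over the 4 arrays lay nearest to the globins were found among 18686 genes well above background on all 4, by the root mean square distance in log2 after centring each gene. The 9 genes were left out of this search and their distances are given apart. Nearest to the mean embryonic globin profile were then *Alas2* (0.514), *Slc4a1* (0.533), *Gata1* (0.599) and *Nfe2* (0.863). The distances of the embryonic globins to their own mean were 0.220 for *Hba-x*, 0.614 for *Hbb-y* and 0.775 for *Hbb-bh1*, and those of other members were 0.197 for *Hba-a1*, 0.237 for *Hba-a2* and 0.466 for *Ahsp*. So *Hba-a1* lay nearest of all in the main background treatment, and *Alas2*, *Slc4a1* and *Gata1* lay nearer to that mean than *Hbb-y* and *Hbb-bh1* did. Under normexp the E8.5 differences of *Alas2*, *Slc4a1* and *Gata1* were 2.58, 2.98 and 2.57 in log2. Those of *Hbb-y* and *Hbb-bh1* were 5.72 and 3.74, so no such order is claimed under normexp.

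Of the adult-type genes, *Hba-a1* and *Hba-a2* could be used for the same search. The embryonic genes lay at 0.190 (*Hba-x*), 0.458 (*Hbb-y*) and 0.960 (*Hbb-bh1*) from their mean and *Ahsp* at 0.650. Outside the 9 genes the nearest were *Slc4a1* (0.419), *Alas2* (0.492), *Gata1* (0.792), *Nfe2* (1.05) and *Rhd* (1.07). *Slc4a1*, the anion exchanger of the red cell membrane, was 34.1-fold higher on the array labelled *Dyrk2*-/- at E8.5 and 2.17-fold higher at E10.5. *Alas2*, which encodes the first enzyme of heme synthesis in red cells, was 16.7-fold and 2.31-fold higher. Under normexp the E8.5 differences were 2.98 and 2.58 in log2. These distances rest on 4 points each and are given for the main background treatment alone.

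Lists of cell type markers were read beside the globins, with the summed level of a list given as a multiple of the 75th percentile. Of 12 red cell markers 11 were on the array and 7 were well above background on all 4 arrays, with a summed level of 109, 124, 102 and 126. The sum was carried by *Hemgn*, which read 6.62, 6.74, 6.27 and 6.24. At E8.5, 6 of 10 markers compared were at least 1.5-fold above WT on the array labelled *Dyrk2*-/-, beside 5.14% of all genes. The list had a median of 2.56 in log2 (1.48 with bounds, 0.97 under normexp), and the count was 6 under every scaling. At E10.5, 8 of 11 were higher (10 with spike-in scaling), beside 3.5% of all genes, with a median of 1.12 (0.89 under normexp).

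The red cells of the early embryo arise in the yolk sac, so markers of its endoderm were also read. All 12 were on the array and 10 were well above background on all 4 arrays, with summed levels of 90.9, 55.0, 26.4 and 21.6. At E8.5 the sum on the array labelled *Dyrk2*-/- was 0.604 of that on the WT array, and 8 of 12 markers were at least 1.5-fold lower, or 12 of 12 with spike-in scaling and without scaling and 6 with normexp. Of all 20709 genes tested, 1346 were lower at that threshold, 9529 with spike-in scaling, 3177 without scaling and 342 with normexp. The median was −0.63 in log2. At E10.5 the ratio of sums was 0.819 and 0 of 11 markers passed 1.5-fold, or 3 of 11, all lower, without scaling. The brightest of them was *Spink1* on the WT E8.5 array (4.81), *Rbp4* on the other E8.5 array (3.90) and *Afp* at E10.5 (4.03 and 3.76). The E10.5 sums were carried mostly by *Afp*. Under either label *Afp* and *Trf* were higher at E10.5 than at E8.5, and the other 10 markers were at least 1.5-fold lower. Which tissue the *Afp* and *Trf* values came from was not tested.

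Yolk sac endoderm markers thus stood lower on the array labelled *Dyrk2*-/- at E8.5 where the globins stood higher, and the part of the yolk sac in the globin values was not tested. For decidua and trophoblast, 9 of 10 markers were on the array, 5 were well above background on all 4, and *Prl7a1* and *Tpbpa* on none. Their summed level was 7.94, 8.15, 6.09 and 7.69, with *Cryab* the brightest at E8.5 and *Dcn* at E10.5. *Cryab* and *Dcn* carried most of each sum, so the sums say little of the other markers. Of 7 compared at E8.5, *Prl3d1* (at least 6.62-fold, 1.25 in log2 under normexp) and *Prl8a2* (2.72-fold, 0.84 under normexp) were higher on the array labelled *Dyrk2*-/- and *Dcn* was 1.57-fold lower, genes named after their values were seen. The number lower was 2 with spike-in scaling and without scaling and 0 with normexp. At E10.5, 1 of 5 was higher (2 with spike-in scaling, 0 with normexp) and 0 lower, and the part of these tissues in the globin values was not tested. Of 7 maternal neutrophil markers 1 passed on all 4 arrays and *S100a8*, *S100a9*, *Ngp* and *Ltf* on none, with sums of 0.331, 0.369, 1.098 and 0.982, *Elane* the brightest at E8.5 and *Mpo* at E10.5. The E10.5 sums were carried mostly by *Mpo* (−0.37 and −0.64), while *Elane* read −2.28, −2.26, −2.32 and −1.94. Which cells the *Mpo* values came from was not tested.

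Other blood and vessel markers were read next. The 7 endothelial markers were well above background on all arrays, with summed levels of 49.4, 52.9, 37.6 and 37.8 and *Egfl7* the brightest. Of the macrophage markers 2 of 7 were so, with sums of 0.767, 0.699, 4.15 and 3.16 and *Csf1r* the brightest. Of the megakaryocyte markers 1 of 6 was so, with sums of 0.178, 0.217, 7.66 and 6.77, *Itga2b* the brightest at E8.5 and *Pf4* at E10.5. Macrophage and megakaryocyte sums were higher at E10.5 than at E8.5 under either label.

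Markers of solid tissues were read in the same way. The heart sum was 187, 190, 94.6 and 97.9, with *Myh6* the brightest. The neural tube sum was 36.7, 37.8, 53.5 and 46.6, with *Sox3* the brightest at E8.5 and *Nes* at E10.5, and the paraxial mesoderm sum was 21.8, 25.7, 13.9 and 13.3, with *Meox1* the brightest. The ratio of the array labelled *Dyrk2*-/- to WT at E8.5 was 1.02, 1.03 and 1.18 for these lists in turn, on the scale of the 75th percentile. At E10.5 it was 1.03, 0.870 and 0.956, and the 1 marker of these lists past 1.5-fold was *Tbx6* of paraxial mesoderm, named after its value was seen, which was 3.16-fold below WT.

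Position in the clusters was compared with the genes around them, using probe coordinates of build mm9. The *Hba-x* probe lies at chr11:32177668-32177727, the *Hba-a1* probes at chr11:32183955-32184014 and chr11:32184427-32184486, *Hbq1b* at chr11:32187550-32187609 and *Hba-a2* at chr11:32197245-32197304. On chromosome 7, *Hbb-b1* lies at chr7:110976379-110976438, *Hbb-bh1* at chr7:110990209-110990268 with its dimmer probe at chr7:110990930-110990989, and *Hbb-y* at chr7:111000448-111000507. The probes of *Hbb-b2* and *Ahsp* have no coordinates in the annotation.

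Within 200 kb of the alpha-like genes lay 9 other genes, of which 8 were well above background on some array. None of those compared was 1.5-fold higher or lower on the array labelled *Dyrk2*-/- at E8.5, and 1, the globin gene *Hbq1a*, was higher at E10.5. *Nprl3*, whose introns hold enhancers of the alpha cluster, read 1.62, 1.45, 1.39 and 1.44, with its probe 44.7 kb from that of *Hba-x*. *Mpg* read 2.48, 2.47, 2.19 and 2.27. At E8.5 *Gm12108*, *Il9r* and *Hbq1a* could not be compared, and the other 6 differed by less than 1.5-fold on the scale of the 75th percentile. With spike-in scaling *Nprl3* stood at −0.70 in log2. That scaling shifts all genes of the comparison alike, so *Snrnp25*, at −0.22 against −0.17 for *Nprl3* before it, passed 1.5-fold as well.

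Around the beta-like genes, 30 other genes had probes within 200 kb, of which 5 were well above background on some array. *Hbb-bt* and *Hbb-bh2* were the 2 genes at least 1.5-fold higher on the array labelled *Dyrk2*-/- at E8.5, and *Hbb-bt* the 1 gene at E10.5. The odorant receptor gene *Olfr629* read −3.53, −4.27, −2.38 and −2.87, and was the 1 gene at least 1.5-fold lower at E8.5 (1.67-fold, but −0.05 in log2 under normexp). Most of the other genes there were odorant receptor genes that were not well above background on any array.

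The probe sequences were compared with each other for runs of bases that they share. In the *Hba-a1* and *Hba-a2* probes, shown by their first 30 bases, capitals mark the run that both share. It is 59 of 60 bases long, so these probes read nearly the same sequence and their values are not independent. No other pair among the globin probes shared 12 bases or more, apart from *Hbq1b* and *Hbq1a*, which shared 21. Probes without a shared run can still read the same transcript at different places. The probes were not compared with whole transcripts, so which of them tell related globin genes apart was not tested.
Hba-a1 brighter probe: cTTCTTCTCTCCCTTGCACCTGTACCTCTT
Hba-a2 probe: TTCTTCTCTCCCTTGCACCTGTACCTCTTG

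The probes of *Hba-x* and *Hbb-y*, with the largest E8.5 differences among the embryonic genes, and the dimmer *Hba-a1* probe, whose E10.5 difference exceeds that of the brighter one, are shown whole with no part marked.
Hba-x probe: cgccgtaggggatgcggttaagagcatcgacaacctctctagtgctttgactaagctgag
Hbb-y probe: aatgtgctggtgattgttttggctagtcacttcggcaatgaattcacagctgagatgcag
Hba-a1 dimmer probe: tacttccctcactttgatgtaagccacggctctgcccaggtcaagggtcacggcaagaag

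The *Hbb-b1* probe shares a run of 46 of its 60 bases with the start of the *Hbb-bs* transcript, as far as the reference sequence reaches, and of 12 bases with that of *Hbb-bt*. How far it reads *Hbb-bs* in C57BL/6 RNA was not tested. Of the 11 member probes, 9 have an accession that the RefSeq table holds, and all 9 carry the same gene name there.

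Promoter sequences were available for 5 of the 9 genes (*Hba-x*, *Hbb-y*, *Hba-a1*, *Hba-a2* and *Hbq1b*), and for *Hbb-bt* and *Hbb-bs*, from RefSeq on build GRCm38.p6. *Hbb-bh1*, *Hbb-b1*, *Hbb-b2* and *Ahsp* had no entry in the set of promoter sequences used here. The letters CACCC (the box that KLF1 binds), CCAAT (the box of NF-Y), GATAA (a form of the GATA motif) and TATAA (the core of the TATA box) were searched on both strands of the 120 bases before the transcript start. Over 32851 promoters, 31.7% of such windows hold CACCC, 21.3% CCAAT, 10.499% GATAA and 11.8% TATAA.

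Here CACCC was found in 6 of the 7 windows, in all but that of *Hbq1b*, which held none of the 4 motifs. CCAAT was found in *Hbb-y*, *Hba-a1*, *Hba-a2*, *Hbb-bt* and *Hbb-bs*, GATAA in *Hba-x* alone, and TATAA in all except *Hbb-y* and *Hbq1b*. *Hbb-bt* held CACCC at 2 places and CCAAT, on either strand, at 3. These matches describe the letters in the window and say nothing of a bound factor. The windows of *Hba-a1* and *Hba-a2* share a run of 297 of 300 bases.

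Windows of an embryonic alpha-like, an embryonic beta-like, an adult-type alpha and a C57BL/6 adult beta gene are shown because these genes rose together between the stages. Capitals mark the motifs, with ATTGG for CCAAT on the other strand. *Hba-x* lies at chr11:32276480-32276599 on the plus strand, *Hbb-y* at chr7:103853208-103853327 on the minus strand, *Hba-a1* at chr11:32283552-32283671 on the plus strand and *Hbb-bt* at chr7:103813924-103814043 on the minus strand.
Hba-x promoter: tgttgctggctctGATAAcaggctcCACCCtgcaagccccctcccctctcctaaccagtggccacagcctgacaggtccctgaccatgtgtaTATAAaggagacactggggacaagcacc
Hbb-y promoter: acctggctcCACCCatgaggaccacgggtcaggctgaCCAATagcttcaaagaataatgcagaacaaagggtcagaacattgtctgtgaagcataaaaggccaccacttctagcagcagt
Hba-a1 promoter: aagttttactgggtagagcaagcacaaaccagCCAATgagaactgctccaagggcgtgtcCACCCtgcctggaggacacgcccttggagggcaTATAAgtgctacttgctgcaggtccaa
Hbb-bt promoter: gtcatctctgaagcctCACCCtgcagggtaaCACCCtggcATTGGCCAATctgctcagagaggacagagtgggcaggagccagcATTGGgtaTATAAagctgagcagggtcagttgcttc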

How the data were processed

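RNA of whole embryos was measured on 4 arrays with 1 array per group. The intensity of each spot in the scanner output that the authors deposited is background-subtracted and detrended within the array, and per the file headers it comes from Feature Extraction 10.7.1.1, while the labels name 9.5.1.1. Per the file headers the other columns used are 0/1 marks of the scanner software for each spot. The authors also deposited a table of intensities in which the arrays share 1 distribution.

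Outlier spots were left out, the log2 intensities of a probe's other spots were averaged, and the 75th percentile of the array was subtracted. The brightest probe stood for its gene, and 1.5-fold was used for counts, which go by measured values without the bound. A comparison took the genes that were well above background on either array. No test was made.

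The members and lists were chosen with earlier results of these data known. The genes named are the members, the other globins, the regulators, neighbours within 200 kb, genes with the nearest profiles to each type and the brightest marker of each list on an array. The alternatives were quantile normalization, scaling by 7 of 10 spike-in probes, no scaling, normexp background correction with an offset of 50, the deposited table, an average of all a gene's probes, a filter on both arrays and a 2-fold threshold. The steps were tested on simulated data. R 4.3.3, limma 3.58.1, Python 3.11.15, numpy 2.4.6, pandas 2.3.3 and matplotlib 3.10.9 were used.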

Additional observations from a re-analysis of the deposited data

How the results depend on the processing

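Medians of the embryonic and adult-type globins, the gap between them (adult-type minus embryonic) and counts of members at least 1.5-fold higher were recomputed under the alternatives, giving 124 values. The filter on both arrays and the 2-fold threshold were applied to the counts alone, and the added alternatives to what they can change. Of these, 84 stayed within 0.13 in log2 or 1.5 times the count, 36 moved further and 4 changed sign. All changes of sign were in the gap. Quantile normalization and the deposited table moved none of these medians, gaps or counts that far, although *Hbb-y* at E10.5 changed direction under both, and among the 4 genes past 1.5-fold at E10.5 *Hbb-b1* (0.59) took the place of *Hba-x* (0.57 and 0.58). Under both, the E10.5 gap went from 0.15 to 0.25 and the embryonic median from 0.21 to 0.11. These moves are within 0.13 but large beside the values themselves. The cause of the changes was not tested.

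With spike-in scaling the embryonic and adult-type medians (log2) were 4.54 and 4.40 for the genotype difference of E8.5, 0.37 and 0.53 of E10.5, and 2.95 and 2.99 for E10.5 over E8.5 on the arrays labelled *Dyrk2*-/-. Without scaling they were 4.82 and 4.68 for E8.5, 0.081 and 0.23 at E10.5, 7.09 and 7.36 for the stages of WT, and 2.63 and 2.67 for those of the arrays labelled *Dyrk2*-/-. Under normexp they were 4.91 and 4.80 at E8.5 and 6.76 and 5.25 for the stages of WT, the adult-type median at E10.5 was 0.23, and the gap became −0.00082 at E10.5, −1.51 for the stages of WT and −0.0086 for those of the arrays labelled *Dyrk2*-/-.

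With all probes of a gene averaged, the E10.5 medians were 0.66 and 0.54 and their gap was −0.12. The adult-type median was then 7.36 for the stages of WT, with a gap of 0.46, and 2.74 for those of the arrays labelled *Dyrk2*-/-, with a gap of 0.42. At a 2-fold threshold 2 members were higher at E10.5 in place of 4, and 35 of 36 counts of members stayed within 1.5 times.

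The other alternatives were chosen after seeing the data. With the dimmer *Hba-a1* probe, the adult-type median was 0.71 at E10.5 (gap 0.50), 7.37 for the stages of WT (gap 0.46) and 3.12 for those of the arrays labelled *Dyrk2*-/- (gap 0.80). With *Hbb-bt* counted as adult-type it was 4.70 for E8.5 (gap −0.37) and 0.57 for E10.5 (gap 0.36).

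Of all genes past 1.5-fold, 44.1% were higher at E8.5, 45.4% at E10.5, 51.8% between the stages of WT and 55.8% between those of the arrays labelled *Dyrk2*-/-. These shares became 2.98%, 69.2%, 45.3% and 91.3% with spike-in scaling, 13.8%, 28.9%, 66.9% and 79.5% without scaling, and 44.2%, 55.9%, 47.6% and 50.3% under normexp.

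The signal over background limits the comparison of types. *Hbb-b1* and *Hbq1b* had no E8.5 value, and *Hbb-b2* and *Hbb-bt* had none on the WT E8.5 array, so their differences are bounds. *Hbb-bs* has no probe of its own name, and *Hba-a1* and *Hba-a2* share most of a probe. The brightest probes had small E10.5 differences, and their linearity was not tested. Each group is 1 array with an unknown number of embryos, the E10.5 arrays differ in *Xist* and *Ddx3y*, and the brightest *Dyrk2* probe was higher on the arrays labelled *Dyrk2*-/-.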
